A study of Mus musculus with 10 samples.

Results

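The genes described here encode the machinery that loads the sliding clamp and finishes the lagging strand in DNA replication. They are Pcna (the clamp), Rfc1, Rfc2, Rfc3, Rfc4 and Rfc5 (the clamp loader), Rpa1 and Rpa2 (single-strand binding), Fen1 (flap endonuclease) and Lig1 (DNA ligase). The 10 genes were listed by function and matched by symbol to 10 of the 45232 entries of the expression table. NIH3T3 cells are immortalized fibroblasts of the mouse. From cells held for 60 h in medium with 0% serum, used to arrest them in G0, 10 RNA libraries were made. All cells carried InDels in Lin37, made with a CRISPR nickase, in one of 2 single-cell clones, 1 mutated in exon 4 and 1 in exon 6, so that clone and mutation cannot be told apart and no unmutated cells were compared. Each clone carried a doxycycline-inducible episome with a GFP marker, by which the cells were sorted, from which luciferase was expressed in the KO cells and wild-type Lin37 in the rescue cells. The exon 4 clone had 2 KO and 2 rescue libraries, and the exon 6 clone had 3 of each, of which the last was a technical replicate of biological replicate 2. These technical pairs were averaged, which left 4 KO and 4 rescue replicates.

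PCNA is a ring that encircles DNA and tethers the replicative polymerases. Replication factor C (RFC), a complex of the large subunit Rfc1 and the small subunits Rfc2 to Rfc5, opens the ring and places it at primer ends, and RPA coats the exposed single strand. At each Okazaki fragment the polymerase displaces the old primer as a flap, Fen1 cuts the flap and Lig1 seals the nick, both while bound to PCNA. Lin37 is a subunit of the MuvB core of the DREAM complex, which holds cell cycle genes down in resting cells. Genes of G1/S phase are typically bound through E2F sites, and genes of G2/M phase through CHR elements (cell cycle genes homology regions).

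The level of Lin37 followed the labels. It was listed at 0.274 to 0.417 RPKM in the KO replicates and at 2.12 to 4.92 in the rescue replicates, without overlap. Levels are given as RPKM (reads scaled to the length of the gene and the size of the library), rescaled by a median-of-ratios factor per library. The factors ranged from 0.324 to 2.70 and were 1.59 to 2.63 times as high in KO as in rescue in the 4 matched pairs. The 10 most abundant entries held 61.5% to 86.4% of the summed RPKM of a library, and the number of reads behind a value is unknown. Summed over 6 fibroblast markers the level was 376 to 682 RPKM in KO and 443 to 755 in rescue, and 6 markers of other cell types summed to at most 0.490 and 0.601 RPKM.

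Promoter windows from RefSeq (GRCm38.p6, 250 bases before to 50 bases after the gene start) were found for 9 of the 10 genes, and Rfc2 was not matched. Among their 12 windows, 7 windows of 6 genes (Fen1, Lig1, Rfc1, Rfc3, Rfc4 and Rpa2) held an E2F motif. It was searched on both strands with the letters TTCCCGC, then with the letters TTGGCGC, then with the letters TTCGCGC, and last with the letters TTGCCGC, and was present in 9.57% of the 32851 windows of all genes. Shown are the windows with a match of the 4 genes that passed the test below, of which Lig1 had 2 (the one with the most matches is given), and that of Rfc1, the large loader subunit, which was not called. E2F matches are in capitals.
Rfc3, chr5:151651159-151651458, minus strand: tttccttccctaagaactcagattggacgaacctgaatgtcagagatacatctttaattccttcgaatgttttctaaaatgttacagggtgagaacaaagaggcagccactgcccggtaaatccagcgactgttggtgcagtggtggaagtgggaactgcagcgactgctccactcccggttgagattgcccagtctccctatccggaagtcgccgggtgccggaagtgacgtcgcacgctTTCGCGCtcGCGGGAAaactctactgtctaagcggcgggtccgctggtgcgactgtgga
Rfc4, chr16:23127681-23127980, minus strand: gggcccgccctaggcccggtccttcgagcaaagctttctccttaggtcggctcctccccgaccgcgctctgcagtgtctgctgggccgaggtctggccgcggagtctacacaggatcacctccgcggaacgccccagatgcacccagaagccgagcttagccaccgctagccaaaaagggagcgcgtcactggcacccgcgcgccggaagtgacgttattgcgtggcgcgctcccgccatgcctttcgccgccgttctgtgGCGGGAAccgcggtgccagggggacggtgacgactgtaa
Rpa2, chr4:132768110-132768409, plus strand: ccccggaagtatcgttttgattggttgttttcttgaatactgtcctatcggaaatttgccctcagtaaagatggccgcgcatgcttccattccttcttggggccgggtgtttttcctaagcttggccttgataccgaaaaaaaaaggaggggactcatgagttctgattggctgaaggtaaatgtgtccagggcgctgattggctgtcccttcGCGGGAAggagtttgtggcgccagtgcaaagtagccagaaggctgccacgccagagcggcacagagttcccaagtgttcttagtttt
Lig1, chr7:13278576-13278875, plus strand: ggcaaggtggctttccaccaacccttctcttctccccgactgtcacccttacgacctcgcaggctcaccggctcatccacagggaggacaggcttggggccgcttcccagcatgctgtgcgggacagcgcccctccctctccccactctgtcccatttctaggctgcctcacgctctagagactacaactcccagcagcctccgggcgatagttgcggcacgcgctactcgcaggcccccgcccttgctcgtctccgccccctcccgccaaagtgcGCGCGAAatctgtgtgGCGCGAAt
Rfc1, chr5:65335590-65335889, minus strand: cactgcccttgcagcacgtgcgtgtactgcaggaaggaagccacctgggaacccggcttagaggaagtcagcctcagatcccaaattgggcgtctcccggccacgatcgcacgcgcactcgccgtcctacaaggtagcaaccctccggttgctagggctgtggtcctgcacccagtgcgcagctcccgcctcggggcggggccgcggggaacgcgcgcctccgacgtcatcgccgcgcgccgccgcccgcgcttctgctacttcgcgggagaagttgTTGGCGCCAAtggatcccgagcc
In Rfc3 the matches start 9 bases upstream of the gene start and at the start itself, in Rfc4 they start at base 12, and in Rpa2 37 bases upstream. The shown Lig1 window has matches at bases 27 and 43. In Rfc1 the capitals are a pair of overlapping matches on opposite strands at bases 28 and 31, which run into a CCAAT box at base 34. A CHR motif, searched with the letters TTTGAA and with the letters TTCGAA, was found for 2 genes, Fen1 and Rfc3, against 19.2% of all windows, and CCAAT, the motif of NF-Y, for 5 genes against 37.4%. The windows of Pcna, Rfc5 and Rpa1 hold no E2F match by these letters. A match is a description of the sequence and was not tested as a binding site.

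Over both clones, 4 of the 10 genes were higher in KO than in rescue with an adjusted p under 0.05: Rfc3, Rfc4, Lig1 and Rpa2. No gene was lower. Among all 16866 genes tested, 1.61% were called higher and 0.083% lower. At an unadjusted p under 0.05, 9 of the 10 genes were higher, against 5.06% of all genes, and none was lower, against 3.72%. The log2 change had a median of 0.67 over the 10 genes, beside -0.03 over all genes tested. The exception in both counts was Rfc1, whose sign depended on the scaling. All 4 KO replicates lay above all 4 rescue replicates in 8 of the 10 genes (not in Pcna and Rfc1), against 3.11% of the genes tested. KO was above rescue in each of the 4 matched pairs in 9 of the 10 genes (not in Rfc1), against 8.96%. Values were compared on log2(RPKM + 0.5) with limma, with the clone as a covariate; this scale understates the change of genes with low levels, so the ratio of the mean RPKM is given beside it.

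Markers of cycling cells moved with these genes. The summed level of Mki67, Top2a, Ccna2, Ccnb1, Cdk1 and Plk1 was 9.43 to 10.7 RPKM in KO and 0.937 to 2.61 in rescue, and 5 of the 6 were called higher over both clones (not Ccnb1). None of the 6 was at 0 in every replicate. Their part in the results was not tested. In bulk RNA a larger share of cells that express a gene and more RNA per cell cannot be told apart. By flow cytometry after starvation, the paper found slightly more cells in S and G2/M where Lin37 was absent or mutated.

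**Figure D1:**
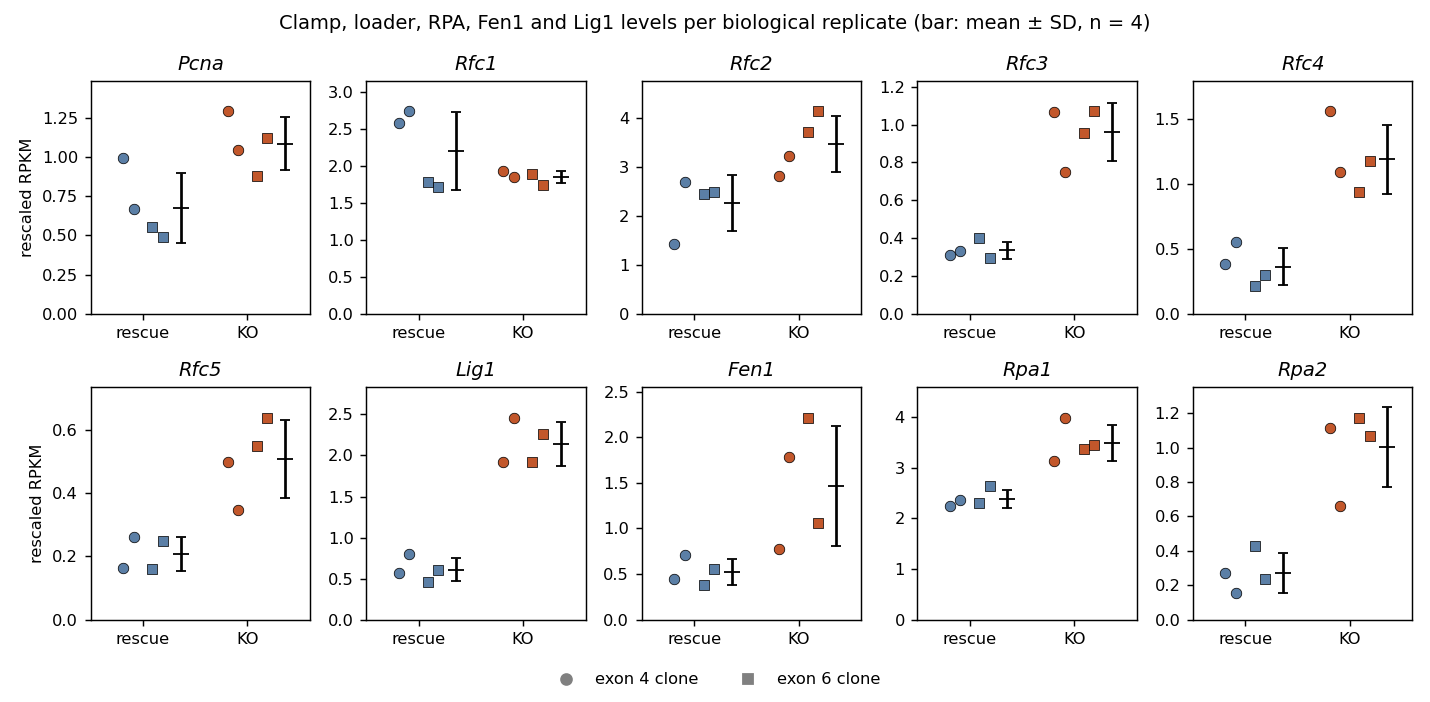
Rescaled RPKM (y axis, linear from 0) of the 10 genes in the rescue (blue) and KO (orange) replicates of the exon 4 clone (circles) and the exon 6 clone (squares), with the mean and SD over 4 replicates as black bars. The KO points lie above all rescue points in 8 panels, and the groups overlap in those of Pcna and Rfc1.

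Of the RFC genes, Rfc4 (chr16:23113943-23127737, minus strand, GRCm38 as annotated by GENCODE M21, like all gene positions here), a small subunit, had the largest change. Its level in KO was 1.56 and 1.09 RPKM in replicates 1 and 2 of the exon 4 clone and 0.932 and 1.18 in those of the exon 6 clone. In rescue the values were 0.385, 0.551, 0.214 and 0.294 in the same order. The lowest KO value thus lay above the highest rescue value. The mean was 1.19 ± 0.265 RPKM in KO and 0.361 ± 0.144 in rescue (SD, n = 4), a ratio of 3.29, with a log2 change of 0.97 (SE 0.12, adjusted p = 0.00370, limma).

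Rfc3 (chr5:151642756-151651242, minus strand), another small subunit, stood at 1.07, 0.748, 0.954 and 1.07 RPKM in KO and at 0.313, 0.333, 0.400 and 0.294 in rescue, in the same order of replicates. The rescue values were tightly grouped, and all KO values were above them. The ratio of means was 2.86 and the log2 change 0.80 (SE 0.11, adjusted p = 0.00497, limma). The last rescue value averages technical libraries at 0.0884 and 0.4996 RPKM, which is a wider gap than that between the rescue replicates.

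Rfc5 (chr5:117378103-117389047, minus strand) was the least abundant of the 10 genes in both groups. It was listed at 0.499, 0.346, 0.550 and 0.639 RPKM in KO and at 0.162, 0.260, 0.161 and 0.248 in rescue. The groups did not overlap and the ratio of means was 2.44, but the log2 change of 0.51 (SE 0.12) missed the threshold with an adjusted p of 0.0952 (limma).

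Rfc2 (chr5:134581366-134601805, plus strand) was the most abundant of the small subunits. Its KO values were 2.82, 3.23, 3.71 and 4.14 RPKM, and its rescue values 1.43, 2.70, 2.45 and 2.49. The groups did not overlap, although the exon 4 replicates 2 (3.23 and 2.70) were close. The ratio of means was 1.53, and the log2 change of 0.54 (SE 0.15) did not pass the test (adjusted p = 0.210, limma). With a replicate left out it passed in 1 of 8 fits, and the log2 change ran from 0.40 to 0.69. The fit that passed (0.69, adjusted p = 0.0218, limma) left out replicate 2 of the exon 4 rescue cells. It thus kept 1.43, the lowest of all, as the only rescue value of that clone.

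Rfc1 (chr5:65261850-65335670, minus strand), the large subunit, was the one gene of the 10 whose mean was not higher in KO, other than with the RPKM as deposited. In KO it was at 1.93, 1.85, 1.90 and 1.74 RPKM, the narrowest spread of the 10 genes, with an SD of 0.0810. In rescue it was at 2.58 and 2.74 RPKM in exon 4 cells, and exon 6 cells had 1.78 and 1.72. Both exon 4 KO values were thus below both rescue values, while the exon 6 values overlapped. The log2 change over both clones was -0.18, with a 95% interval from -0.43 to 0.07 (adjusted p = 0.718, limma), and with the RPKM as deposited the sign turned to 0.67, where the median of all genes was itself at 0.64. KO and rescue had a ratio of means of 1.04 for the exon 6 clone and of 0.710 for the exon 4 clone.

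Because the RFC subunits act as one complex, their levels were also set against Rfc1 within each replicate, which removes the scaling of the library. The ratio of Rfc4 to Rfc1 was 0.492 to 0.807 in KO and 0.121 to 0.201 in rescue. That of Rfc3 to Rfc1 was 0.404 to 0.614 in KO and 0.121 to 0.225 in rescue. Rfc5 to Rfc1 ran from 0.187 to 0.367 against 0.0628 to 0.145, and Rfc2 to Rfc1 from 1.46 to 2.38 against 0.553 to 1.45. None of these 4 ratios overlapped between the groups, though Rfc2 to Rfc1 came as close as 1.462 in KO to 1.452 in rescue. The levels of the same 4 genes did not overlap by themselves either. How often a ratio to Rfc1 separates the groups over all genes was not counted. The ratios are descriptions without a test, and all share the Rfc1 value.

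**Figure D2:**
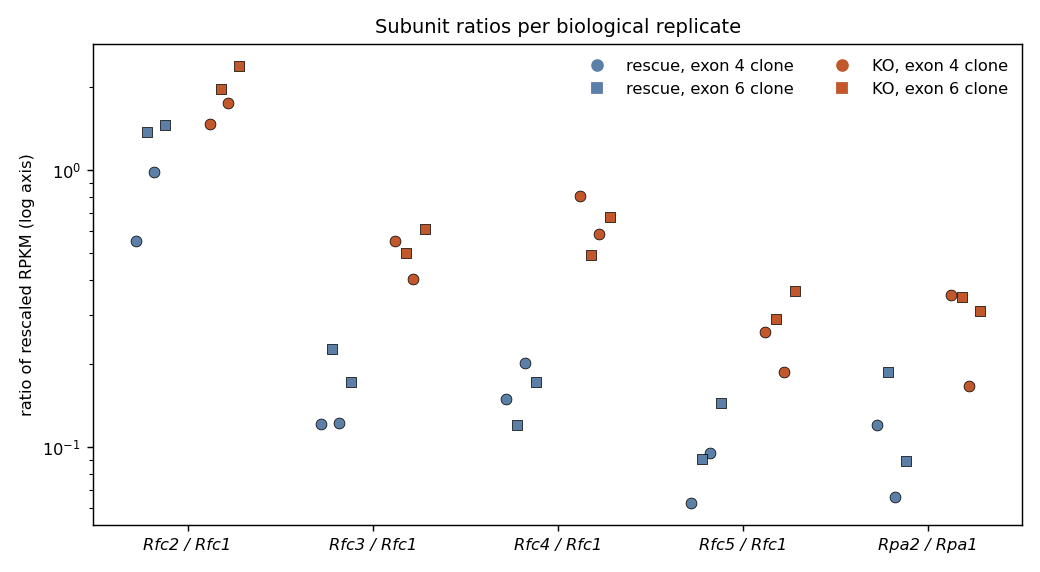
Ratio of rescaled RPKM between subunits of one complex in each replicate (y axis, log scale), for rescue (blue) and KO (orange) in the exon 4 (circles) and exon 6 (squares) clones. The ratios of Rfc2, Rfc3, Rfc4 and Rfc5 to Rfc1 are higher in all 4 KO replicates than in any rescue replicate, and Rpa2 to Rpa1 overlaps.

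Lig1 (chr7:13277283-13311433, plus strand), which joins Okazaki fragments, had the largest log2 change of the 10 genes. Its KO values were 1.92, 2.46, 1.92 and 2.26 RPKM and its rescue values 0.568, 0.806, 0.460 and 0.612. All KO values were more than 1 RPKM above all rescue values. The mean was 2.14 ± 0.268 RPKM in KO and 0.612 ± 0.144 in rescue (SD, n = 4), a ratio of 3.50, and the log2 change was 1.25 (SE 0.12, adjusted p = 0.000875, limma).

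Fen1 (chr19:10199132-10204169, minus strand) varied most between KO replicates. It was at 0.780, 1.79, 2.22 and 1.06 RPKM in KO and at 0.447, 0.708, 0.381 and 0.552 in rescue. Every KO value exceeded every rescue value, by as little as 0.780 against 0.708. The ratio of means was 2.80, and with a log2 change of 0.89 (SE 0.24) the adjusted p was 0.172 (limma). With a replicate left out Fen1 was called in 1 of 8 fits, and the log2 change ran from 0.69 to 1.10. The fit that passed (1.10, adjusted p = 0.0484, limma) left out replicate 1 of the exon 4 KO cells, its lowest KO value. The ratio of Fen1 to Lig1 overlapped between the groups, at 0.406 to 1.16 in KO and 0.786 to 0.902 in rescue.

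The value of Fen1 is also the least secure in its assignment. The antisense gene Gm10143 shares 1909 exon bases with Fen1 on the opposite strand, 78.8% of the exon bases of Fen1, and whether counting used strand is not given in the sources used here. Gm10143 itself was listed at a mean of 0.0936 RPKM in KO and 0.0334 in rescue, far below Fen1. The other overlaps on the opposite strand were smaller: Lat2 with 15.1% of the exon bases of Rfc2, Eif4a2 with 12.6% of Rfc4, Wsb2 with 10.7% of Rfc5, Zswim9 with 5.79% of Lig1, and Tmem258 with 5.37% of Fen1. Tmem258 was listed at a mean of 1.82 RPKM in KO and 1.66 in rescue, above Fen1. The log2 changes of Eif4a2, Wsb2, Zswim9 and Tmem258 were 0.13, -0.19, -0.01 and 0.08, none called, whereas Lat2 was below the minimum level for the test.

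Of the RPA genes, Rpa2 was called and the large subunit Rpa1 was not, although the difference between them was not tested. Rpa2 (chr4:132768332-132778752, plus strand) was at 1.11, 0.660, 1.17 and 1.07 RPKM in KO and at 0.270, 0.156, 0.428 and 0.236 in rescue, without overlap. This ratio of means, 3.68, was the highest of the 10 genes, and the log2 change was 0.96 (SE 0.13, adjusted p = 0.00731, limma). With no minimum level, so that 40885 genes were tested, the adjusted p of Rpa2 was 0.0570.

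Rpa1 (chr11:75298166-75348324, minus strand) was the most abundant of the 10 genes in both groups. Its values were 3.14, 3.99, 3.38 and 3.44 RPKM in KO and 2.25, 2.36, 2.30 and 2.65 in rescue. The groups did not overlap, but the ratio of means was only 1.46, and the log2 change of 0.46 (SE 0.10) had an adjusted p of 0.0728 (limma). The ratio of Rpa2 to Rpa1 had a mean of 0.294 ± 0.0881 in KO and 0.115 ± 0.0521 in rescue (SD, n = 4), with overlap. Rpa3, the remaining RPA subunit, had a log2 change of -0.04 at low levels (0.179 ± 0.142 RPKM in KO and 0.204 ± 0.167 in rescue), and its sign turned with the RPKM as deposited (0.30) and with quantile normalization (0.01).

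Pcna (chr2:132249162-132253314, minus strand), the clamp itself, was at 1.29, 1.05, 0.883 and 1.12 RPKM in KO and at 0.992, 0.666, 0.552 and 0.490 in rescue. It was higher in KO in 4 of 4 matched pairs, but the groups overlapped through the exon 4 rescue replicate 1. The ratio of means was 1.61, and the log2 change of 0.44 (SE 0.12) did not pass the test (adjusted p = 0.176, limma).

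Pcna has a processed pseudogene, Pcna-ps2, a copy of its mRNA at chr19:9283380-9284160 (GRCm38, plus strand), that shares 565 stretches of 31 bases with it. These are 75.2% of the stretches of the pseudogene and 23.3% of those of Pcna. Pcna-ps2 was listed at 2.22, 2.18, 2.27 and 2.01 RPKM in KO and at 1.21, 1.06, 1.30 and 1.20 in rescue. It thus had a higher RPKM than Pcna in all 8 replicates, 1.22 to 2.58 times as high, and its groups did not overlap. Its log2 change was 0.66 (SE 0.09, adjusted p = 0.00520, limma).

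How the reads were divided between Pcna and Pcna-ps2 cannot be read from the table. The RPKM of Pcna-ps2 was therefore added to that of Pcna, each weighted with the exon bases of its gene in GENCODE M21. The level was then 1.79 ± 0.163 RPKM in KO and 1.06 ± 0.222 in rescue (SD, n = 4). Over both clones the log2 change of the sum was 0.56 (SE 0.10), with an adjusted p of 0.0336 (limma). The groups no longer overlapped, the lowest KO value being 1.62 and the highest rescue value 1.39. Within a clone the sum was not called. Its log2 change was 0.62 in the exon 6 clone (adjusted p = 0.0952) and 0.49 in the exon 4 clone (adjusted p = 0.988, limma). This sum was chosen after the values were seen. Pcna-ps2 accounted for 28.5% to 45.6% of the sum of length-weighted RPKM, which is not a count of reads. The call on Pcna over both clones thus depended on how the copy was treated.

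**Figure D3:**
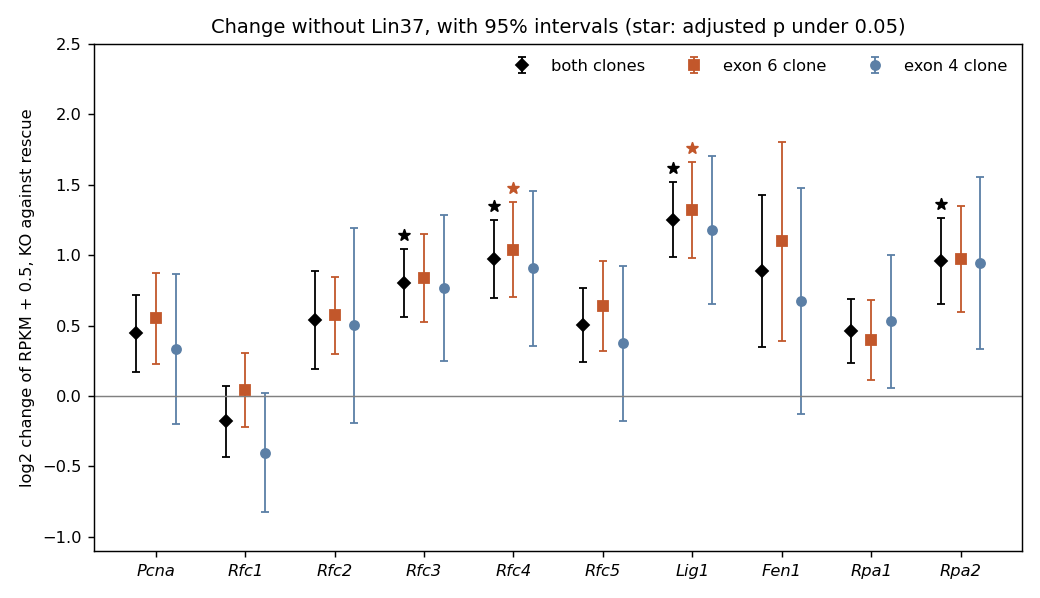
Log2 change of RPKM + 0.5 in KO against rescue (y axis) with 95% intervals from limma, for both clones (black diamonds), the exon 6 clone (orange squares) and the exon 4 clone (blue circles), with stars for an adjusted p under 0.05. Lig1, Rfc4, Rpa2 and Rfc3 are starred over both clones, and Rfc1 lies below 0 except in the exon 6 clone (with the RPKM as deposited its value over both clones is 0.67).

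Within each clone 2 KO replicates were compared with 2 rescue replicates. In the exon 6 clone Lig1 (log2 change 1.32, SE 0.13, adjusted p = 0.0211) and Rfc4 (1.04, SE 0.13, adjusted p = 0.0392, limma) were called, 2 of 10 against 1.24% of 15301 genes called higher. No gene was called lower, against 0.0654% of all genes, and 9 of the 10 had an unadjusted p under 0.05 in the higher direction, against 7.31%. Leaving out any 1 of the 4 exon 6 replicates left none of the 10 genes called, in a fit where the lone sample is assumed to vary like those of the other group. All KO values were above all rescue values in 9 of 10 genes, but with 2 against 2 this held for 21.8% of all genes.

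In the exon 4 clone none of the 18751 genes tested was called (0%), the lowest adjusted p being 0.0574. At an unadjusted p under 0.05, 5 of the 10 genes were higher (Rfc3, Rfc4, Lig1, Rpa1 and Rpa2), against 2.27% of all genes. Their log2 changes were 0.77, 0.91, 1.18, 0.53 and 0.94 in this clone. With the matched replicates as a block, 7 of the 10 were higher at that threshold (Rfc2 and Fen1 in addition), against 3.67% of all genes, and 1, Rfc1, was lower (unadjusted p = 0.0424, limma), against 5.57%, but none of the 10 was called. All KO values were above all rescue values in 9 genes, against 11.4%, and below them in 1, Rfc1, against 18.7%. The ratio of means in the exon 4 and the exon 6 clone was 2.83 and 4.14 for Rfc4, 2.81 and 2.91 for Rfc3, 3.19 and 3.90 for Lig1, and 4.16 and 3.38 for Rpa2.

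A difference between the clones was looked for as a clone by genotype term in the model. None of the 16866 genes was called (0%). Of the 10 genes, Rfc1 alone had an unadjusted p under 0.05 (0.0292 in limma, adjusted p = 0.997). Of all 16866 genes, 434 met that threshold with a higher change in the exon 6 clone and 251 with a lower one. For Rfc1 the log2 change was 0.45 higher in the exon 6 clone (95% interval 0.06 to 0.83). For Rfc4 the difference between the clones was 0.13 (95% interval -0.46 to 0.73), and for Lig1 0.14 (95% interval -0.43 to 0.71), so that differences of that size in either direction were not detectable.

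The levels of the 10 genes can be ordered because RPKM is scaled by gene length. In rescue, Rpa1 (2.39 RPKM), Rfc2 (2.27) and Rfc1 (2.20) overlapped with each other and lay above the other 7 genes without overlap. Pcna (0.675), Lig1 (0.612), Fen1 (0.522), Rfc4 (0.361), Rfc3 (0.335), Rpa2 (0.273) and Rfc5 (0.208) followed, and each overlapped with its neighbour. In KO, Rpa1 (3.49 RPKM) and Rfc2 (3.47) stood above Lig1 (2.14) without overlap. Lig1 was followed by Rfc1 (1.85), Fen1 (1.46), Rfc4 (1.19), Pcna (1.09), Rpa2 (1.00) and Rfc3 (0.960), neighbours that overlapped, and Rfc5 (0.509) lay below them. Lig1 thus had the fifth highest mean in rescue and the third in KO.

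The other genes of the pathway were followed as 7 lists of 30 genes in all, of which 28 passed the minimum level (Dna2 and Ung did not). Over both clones 6 of the 28 rose and none fell, beside the 1.61% of all genes that were called higher. Their log2 change had a median of 0.14. Among the listed genes of alternative clamp loaders, complexes that hold small RFC subunits without Rfc1, Chtf18 rose. Its log2 change was 1.11 (SE 0.15, adjusted p = 0.00637, limma). Its level was 1.10 ± 0.319 RPKM in KO and 0.228 ± 0.0256 in rescue (SD, n = 4). The other 4 genes of that list, Atad5, Dscc1, Chtf8 and Rad17, were not called, and Rad17, the loader of the checkpoint clamp, had the smallest change at 0.01. No member of the checkpoint clamp itself (Rad9a, Rad1, Hus1) was called, with Rad1 at 0.00.

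Of the genes for flap and primer removal, 2 of 4 tested rose. Rnaseh2c, a subunit of the ribonuclease that removes RNA from RNA-DNA hybrids, was at 7.09 ± 1.94 RPKM in KO and 1.74 ± 0.211 in rescue (SD, n = 4), with a log2 change of 1.73 (SE 0.11, adjusted p = 0.000165, limma). Its partners Rnaseh2a and Rnaseh2b were not called, at 0.08 and -0.01. Exo1, an exonuclease related to Fen1, had a log2 change of 0.69 (SE 0.13, adjusted p = 0.0368, limma), but with the matched KO and rescue replicates as a block the adjusted p was 0.0557 and the call was lost. The alternative ligases Lig3 and Lig4 and the Lig3 partner Xrcc1 were not called, with Lig4 at -0.01.

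Among 8 tested partners and modifiers of PCNA, 3 rose. Chaf1a, the chromatin assembly subunit that PCNA recruits behind the fork, had the largest log2 change of the lists. It went from 0.930 ± 0.255 RPKM in rescue to 5.003 ± 0.539 in KO (SD, n = 4), with a log2 change of 1.96 (SE 0.15, adjusted p = 0.000293, limma). By the ratio of means, 5.38 for Chaf1a, Exo1 (6.26) and Rad18 (5.86) were higher. Exo1 was at 0.415 ± 0.119 RPKM in KO and 0.0663 ± 0.0557 in rescue (SD, n = 4), so its ratio rests on a rescue level near 0. Rad18, the ligase that ubiquitinates PCNA, changed by 1.43 (SE 0.16, adjusted p = 0.00218), and the licensing factor Cdt1, which is degraded on PCNA, by 1.35 (SE 0.14, adjusted p = 0.00121). The PCNA-binding protein Pclaf was at 0.01, with levels of 0.155 and 0.150 RPKM. Of the 4 subunits of polymerase delta, the polymerase that PCNA holds on the lagging strand, none was called. Pold4 had the smallest change (-0.13), while Pold1 was at 0.48 with an adjusted p of 0.0570 and of 0.0493 with the replicate block.

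**Figure D4:**
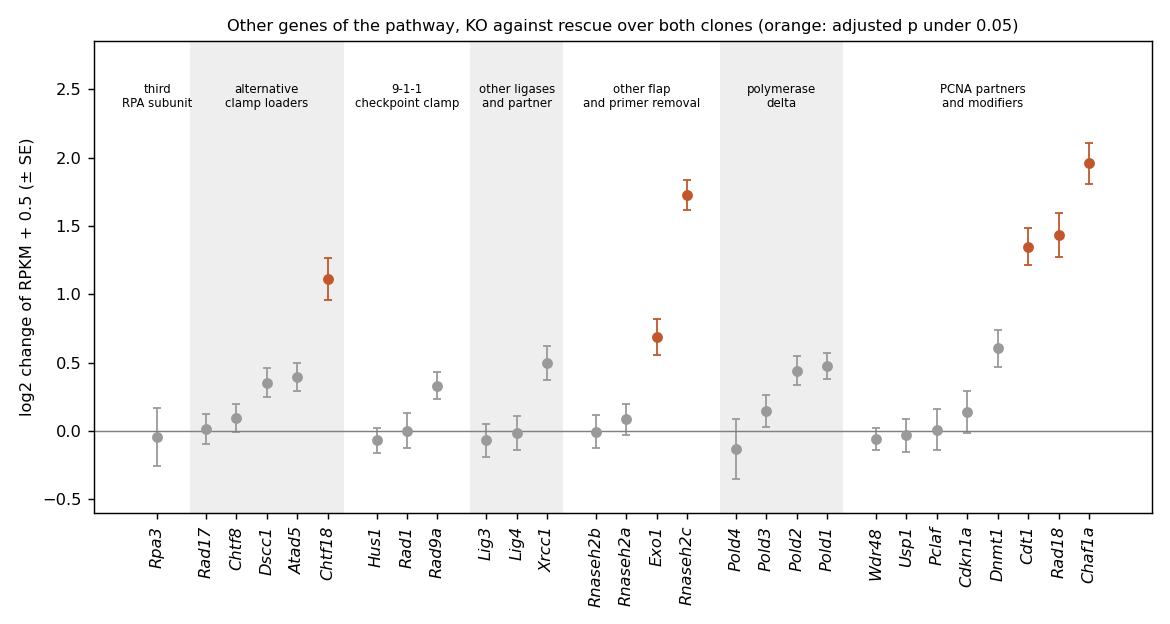
Log2 change of RPKM + 0.5 in KO against rescue over both clones (y axis, points with SE) for the 28 other genes tested, grouped by list, with an adjusted p under 0.05 in orange. The 6 called genes are all higher in KO, and the remaining 22 lie between -0.13 and 0.61.

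The genes with the pattern most like that of Pcna, by Pearson correlation of log2(RPKM + 0.5) over the 8 replicates among 7521 genes whose mean reached 1 RPKM, were Gm21596 (r = 0.980), Arhgef2 (0.978), Anp32b-ps1 (0.955), Selenok (0.934) and Ddx19a (0.930). The points share library scaling and genotype, and the list is a description only.

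How far the calls depended on the settings is shown in the plot of changes under each setting. Rfc3, Rfc4 and Lig1 were called under every other setting in which they could be tested (19, 19 and 20 settings), including each replicate left out, and Rpa2 in 18 of 19. Rfc5 was called in 3 of 19, which include quantile normalization (adjusted p = 0.0487) and technical replicates kept apart (adjusted p = 0.0299). With the RPKM as deposited 9 of the 10 genes were called, all but Rfc1, beside 875 of all 16349 genes called higher. But there the median of all genes was shifted by 0.64, and 7171 genes were higher at an unadjusted p under 0.05 (limma). Relative to that shift the log2 changes were 1.33 for Lig1, 0.97 for Rfc4, 0.94 for Fen1, 0.86 for Rpa2, 0.78 for Rfc2, 0.70 for Rfc3, 0.66 for Rpa1, 0.49 for Pcna, 0.40 for Rfc5 and 0.03 for Rfc1.

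**Figure D5:**
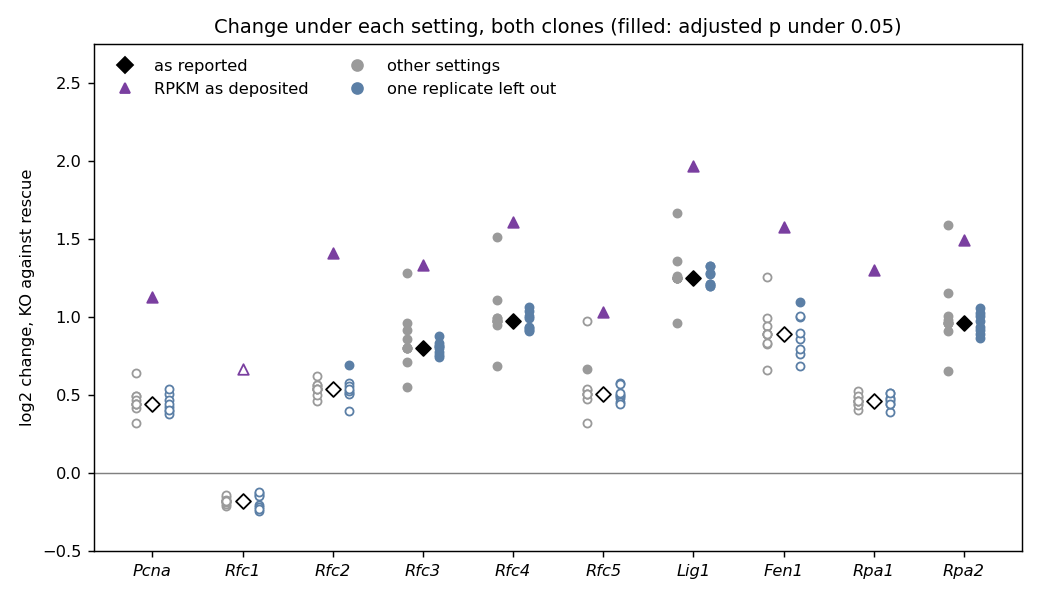
Log2 change in KO against rescue over both clones (y axis) under each setting, as reported (diamonds), with the RPKM as deposited (triangles), with 1 replicate left out (blue circles) and under the other settings (grey circles), filled where the adjusted p is under 0.05. Rfc3, Rfc4 and Lig1 are filled throughout, and Rfc1 is above 0 with the RPKM as deposited only.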

How the data were processed

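RNA-seq was done on rRNA-depleted total RNA. The authors trimmed adapters (cutadapt), aligned to mm10 by segemehl, which allowed split reads, and used rnacounter with GENCODE genes to make the RPKM values they deposited; the submitters' processing notes also name Picard 1.89. Only 18.7% to 30.9% of low values gave whole reads within 0.05, so counts were not recovered, the depth is unknown, and the edgeR test of the study could not be repeated.

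Each library was divided by its median-of-ratios factor over 8523 genes. Genes whose mean reached 0.1 RPKM were tested on log2(RPKM + 0.5) with limma 3.58.1 (eBayes with trend, R 4.3.3), with Benjamini-Hochberg adjustment over all genes tested. The alternatives changed the pseudocount, minimum level, scaling, technical replicates, covariate, block and trend, and left out each replicate. The procedure was run on simulated data with independent noise and with changes only in genes whose mean reached 1 RPKM. Changes in genes below that level, such as Rfc3 and Rfc5, and replicates that deviate together were not simulated. The members and lists were chosen with earlier results of these data known. All 10 genes, the called pathway genes and the gene of each list with the smallest change were named, and genes like Pcna by correlation. Nothing states that replicates were separate cultures, so p-values measure the spread between these samples. Replicate numbers come from the labels, and same-numbered KO and rescue samples deviated together (r = 0.477 in the exon 4 and 0.360 in the exon 6 clone, 7550 genes). Positions and overlaps are from GENCODE M21 (GRCm38); gene symbols matched 44585 of 45232 entries.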

Additional observations from a re-analysis of the deposited data

Results flagged for a closer look

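Rfc1 was marked because the estimate of its change differed between the clones, although the difference was not called. The log2 change in KO against rescue was 0.45 higher in the exon 6 than in the exon 4 clone (interaction in limma, unadjusted p = 0.0292, adjusted p = 0.997). Both exon 4 pairs were negative, at -0.35 and -0.46, and both exon 6 pairs positive, at 0.07 and 0.02.

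Rfc2 in rescue was marked because replicate 1 of the exon 4 clone (1.43 RPKM) lay far below the other values (2.45 to 2.70 RPKM). The gap was 0.839 of the range, above Dixon's 95% limit for 4 samples. This was 1 of 20 groups examined, and chance marks about 1 in 20.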

How the results depend on the processing

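Over both clones 4 of the 10 genes were called, which became 1 with a minimum of 1 RPKM (where 4 of the 10 were tested), 9 with the RPKM as deposited, and 4 to 5 with a replicate left out. In the exon 6 clone the 2 calls became 0 with no minimum level, 1 with a minimum of 1 RPKM, 10 with the RPKM as deposited, 1 with either technical library alone, and 0 with any replicate left out. In the exon 4 clone and for the clone by genotype term, 0 of the 10 were called under all settings run. The 6 pathway calls became 3 with a minimum of 1 RPKM, 12 as deposited and 10 with technical replicates kept apart, and 5 to 6 with a replicate left out. Over all genes, 271 called higher became 171 with no minimum, 93 with a minimum of 1 RPKM and 875 as deposited, and the 14 called lower became 27 with the replicate block and 6 with no minimum, with no clone covariate or with library 3 alone. With a replicate left out the higher calls ran from 174 to 265, with the fewest without replicate 2 of the exon 6 KO cells, and the lower calls from 4 to 16. Over all genes in the exon 6 clone, 189 higher became 0, 67 and 10040 under the same settings 69 with library 2 alone, and 0 to 69 with a replicate left out. Apart from Exo1 (adjusted p = 0.0557) and Pold1 (0.0493), the replicate block changed no call among the 10 genes and the pathway genes over both clones, where it gave 4 and 6 calls.

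Chtf18 had an adjusted p of 0.0547 with no minimum level, and Exo1 missed the threshold in 6 of 8 settings with a replicate left out (highest adjusted p = 0.190). Signs were followed only for the 10 genes and for pathway genes called or with the smallest change of their list. Among these, signs turned for Rfc1 as deposited (0.67) and for genes near 0. With the RPKM as deposited these were Rpa3 (0.30), Pold4 (0.68), Lig4 (0.60) and Rnaseh2b (0.26). With quantile normalization they were Rpa3 (0.013) and Rnaseh2b (0.10), and with a pseudocount of 0.1 Rnaseh2b (0.051). With technical replicates kept apart they were Rpa3 (0.030), Pold4 (0.0010) and Rnaseh2b (0.010). With library 2 alone they were Pclaf (-0.010), Rpa3 (0.0035), Rad1 (-0.020), Pold4 (0.021) and Lig4 (0.0030), and with library 3 alone Rnaseh2b (0.019). With a replicate left out the log2 change ran from -0.075 to 0.13 for Pclaf, -0.21 to 0.12 for Rpa3, -0.056 to 0.086 for Rad17, -0.077 to 0.082 for Rad1, -0.35 to 0.036 for Pold4, -0.11 to 0.054 for Lig4 and -0.053 to 0.071 for Rnaseh2b. The cause of these turns was not tested.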
